A study of Mus musculus with 2 samples.

Results

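Hyaluronan is a long, unsulfated polysaccharide of the extracellular matrix, built from alternating glucuronic acid and N-acetylglucosamine. Synthases of the plasma membrane make it from UDP-glucuronic acid and UDP-N-acetylglucosamine and push the chain out of the cell, hyaluronidases cut it, the receptor CD44 binds it at the cell surface, and proteins such as versican and TSG-6 (the product of Tnfaip6) organize it into larger assemblies. In arteries, hyaluronan and versican form a hydrated matrix around smooth muscle cells and are known to accumulate in injured and inflamed vessel walls.

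The 10 genes described here were taken by symbol: the synthases Has1, Has2 and Has3, the nucleotide sugar enzymes Uap1 and Ugdh, the hyaluronidases Hyal1 and Hyal2, the receptor Cd44, and the hyaluronan-binding proteins Tnfaip6 and Vcan. All 10 were found among 55573 listed genes, and all 10 were among the 14829 genes whose reads summed to 10 or more over the libraries. The latter are called tested genes below, although no test of the conditions was possible. The genes were chosen by their place in the pathway with their read counts and changes between these same libraries known, so every value below is a description and no p-value is given. The RNA came from mesenteric arteries, the small arteries that feed the intestine, of 10 weeks old wild type C57BL/6 mice. A control library was made from arteries in 5 mM K+ and a depolarized library from arteries in 60 mM K+, a solution that depolarizes smooth muscle and opens voltage-dependent Ca2+ channels. Both solutions were applied for 60 min according to the labels, and tissue from 2 mice was pooled for each library. The mice were male and all solutions contained tetrodotoxin to silence nerves, according to the methods of the study. The methods also describe control tissue as the distal part of ligated arteries, taken before the remaining tissue was perfused with high K+. In that protocol both parts come from the same arterial bed, and the control part was last incubated without perfusion. If this holds for the sequenced arteries, segment, perfusion and time in solution cannot be told apart from K+. With 1 library per condition, no difference has a replicate check in the sequencing data. The study also measured some up-regulated genes by qPCR in groups of mice. Its primer list holds Hk2, Adamts4 and Adamts9, which appear below, and none of the 10 genes.

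Counted reads totaled 10480918 for control and 11289598 for depolarized arteries. The reads were compared after scaling by TMM (trimmed mean of M-values), which takes most genes as equal between libraries, and a change is given as log2(fold-change), the log2 of the 60 mM K+ over the 5 mM K+ value. Around each such value a 95% interval was computed by the exact Clopper-Pearson method. This counting interval covers counting error only and says nothing of variation between animals. All 6 smooth muscle markers were detected with the highest sum of the marker lists, at 33715 CPM (reads per 1000000, TMM-scaled) in control and 36738 CPM in depolarized arteries. They ranged widely, from Acta2 at 16614 and 19023 CPM to Tagln at 27.9 and 36.8 CPM. The 6 endothelial markers summed to 2936 and 3978 CPM and the 6 fibroblast markers to 4038 and 3714 CPM. The endothelial markers did not move together. Pecam1, which had 1730 and 2449 CPM, was at a log2(fold-change) of 0.50, Cdh5 at 0.83, Vwf at 0.28 and Tek at 0.25. Kdr was at -1.10 and Emcn at -0.83. The 6 macrophage markers found summed to 38.3 and 29.4 CPM and the 4 adipocyte markers to 71.5 and 32.5 CPM. Of the adipocyte markers, Adipoq, Plin1 and Cfd were lower in depolarized arteries and Lep, with 1 and 9 reads, was higher. The 3 red blood cell markers summed to 57.5 and 38.4 CPM, and the 5 pancreatic acinar markers to 11.4 and 39.5 CPM. Of the acinar markers, 4 had a counting interval wholly above 2-fold, and Cpb1 was at a log2(fold-change) of 0.60. Pnlip had the largest change of them, with 2 reads in control and 61 reads in depolarized arteries. The 4 Schwann cell and nerve markers summed to 92.2 and 89.0 CPM, whereas the 4 neutrophil markers had 1 read and 0 reads and the 4 lymphocyte markers had 6 and 6 reads. Of 6 markers of mesothelium, the cell layer that covers the mesentery, 4 (Msln, Upk3b, Upk1b and Lrrn4) had 0 reads in both libraries, and all 6 together had 4 and 6 reads. The part of the cell types whose markers differ in the results below was not tested. In such bulk tissue, a change in the number of cells of a type and a change in RNA per cell cannot be told apart.

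Depolarized arteries had more reads of Uap1, Has1 and Tnfaip6, each past a 2-fold change, and 0 of the 10 genes were past a 2-fold decrease. Uap1 was higher 4.51-fold (log2(fold-change) 2.17), Has1 2.89-fold (1.53) and Tnfaip6 2.30-fold (1.20). Among all tested genes, 5.54% were past 2-fold upward and 5.86% past 2-fold downward. The same shares with scaling by total counts were 4.05% and 8.67%, because this scaling lowers log2(fold-change) of every gene by 0.21. The counting interval lay wholly above 2-fold for Uap1 and Has1, as it did for 1.77% of tested genes, and wholly below for 0 members against 0.492% of tested genes. The interval of Tnfaip6 reached 1.99-fold. The study's own list of changed genes holds Uap1 and Has1 and not Tnfaip6. That list required a corrected q value below a cut as well as a 2-fold change. It was made from the same reads and is no separate check. As the members were picked with this contrast in view, nothing is read from the difference between these shares. The same holds for the other gene lists below, which were also chosen with results of these data known. Log2(fold-change) over the 10 genes ranged from -0.37 to 2.17 with a median of 0.36, compared with a median of -0.0047 over all tested genes.

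**Figure D1:**
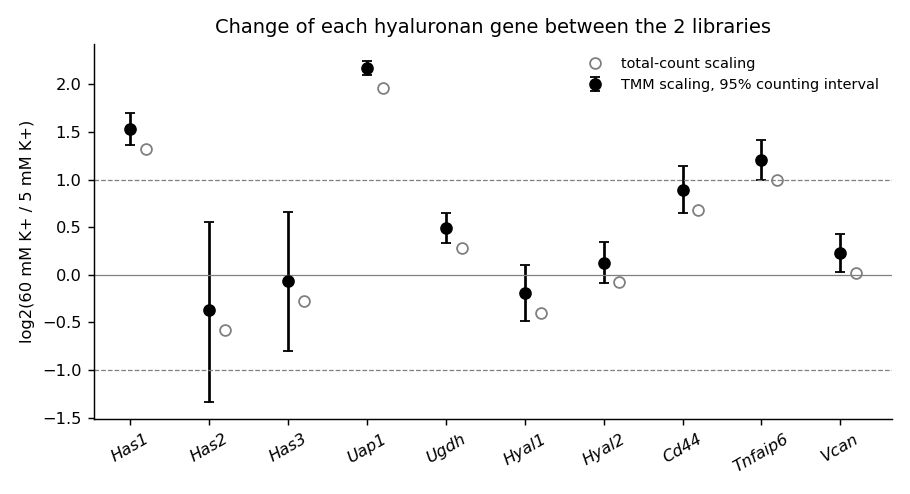
Log2(fold-change) of the 10 hyaluronan genes between the 60 mM K+ and the 5 mM K+ library (y axis) by gene (x axis). Black points and bars are TMM-scaled values with their 95% counting intervals, open circles are values with total-count scaling, and dashed lines mark a 2-fold change. Uap1 and Has1 lie wholly above the upper line, the interval of Tnfaip6 just crosses it, and the wide intervals of Has2 and Has3 rest on few reads.

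To set the changes beside promoter sequence motifs, the 250 bases before the transcription start are printed for Has1, Uap1 and Tnfaip6, the 3 past 2-fold. They come from RefSeq on build GRCm38.p6 and run 5′ to 3′ on the strand of the gene. Capitals mark letters that match a searched motif. Of the 10 genes, 8 had an entry in the promoter table; Has2 and Has3 had none. The windows are chr17:17855189-17855438 on the minus strand for Has1, chr1:170174965-170175214 on the minus strand for Uap1 and chr2:52037863-52038112 on the plus strand for Tnfaip6.
Has1: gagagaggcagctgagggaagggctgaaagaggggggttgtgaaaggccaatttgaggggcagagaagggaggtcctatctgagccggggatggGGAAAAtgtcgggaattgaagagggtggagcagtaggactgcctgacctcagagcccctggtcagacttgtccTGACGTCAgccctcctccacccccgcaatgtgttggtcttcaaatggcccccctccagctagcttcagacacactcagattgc
Uap1: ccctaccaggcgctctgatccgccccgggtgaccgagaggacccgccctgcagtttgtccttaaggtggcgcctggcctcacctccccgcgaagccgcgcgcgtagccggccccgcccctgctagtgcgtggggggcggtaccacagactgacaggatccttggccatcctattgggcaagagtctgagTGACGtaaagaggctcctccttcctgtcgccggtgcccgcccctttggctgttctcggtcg
Tnfaip6: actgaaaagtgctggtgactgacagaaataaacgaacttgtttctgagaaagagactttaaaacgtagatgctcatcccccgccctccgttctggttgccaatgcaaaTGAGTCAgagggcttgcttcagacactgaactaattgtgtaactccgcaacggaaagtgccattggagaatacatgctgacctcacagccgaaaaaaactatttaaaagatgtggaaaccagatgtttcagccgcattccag

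CREB, the transcription factor that the study follows from Ca2+ entry to the nucleus, binds the cAMP-responsive element (CRE). The study looked up its most strongly up-regulated genes in a database of CREB targets and reported most of them as predicted targets. By its fold-change values that group takes in Uap1 and not Has1. The motif search given here is separate from that lookup. The full CRE TGACGTCA was found in the Has1 window, 83 to 76 bases before the start, and in 0 of the other 7 windows. Among 32851 windows of the same length in the table, 1.55% hold it. The shorter CRE motif TGACG, which is contained in the full site, was present in Has1 and Uap1, in Uap1 from 61 to 57 bases before the start, and in 17.8% of all windows. Tnfaip6 carried the AP-1 motif TGAGTCA from 142 to 136 bases before its start. Of all windows, 4.46% hold this form or TGACTCA. The NFAT motif GGAAAA, found in 20.4% of windows, occurred in Has1 and Cd44. The consensus NF-kB motif, found in 7.25% of windows, occurred in Hyal2, which had a log2(fold-change) of 0.13. The SRF CArG box, the heat shock motif GAANNTTC and the TATA box TATAAA, present in 1.47%, 6.69% and 12.4% of windows, occurred in none of the 8 windows. Both strands were searched for all 8 motifs. A match in these windows is a match of letters and not a binding site, and motifs outside the windows were not searched.

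The synthases differed from each other in level and in change. Has1 (chromosome 17, 17980292 to 17992152, minus strand, mm9) had 386 reads in control and 1040 reads in depolarized arteries, which gives a log2(fold-change) of 1.53 (interval 1.36 to 1.70). Only 2.35% of tested genes had a larger log2(fold-change). Has2 (chromosome 15, 56497182 to 56526094), the synthase needed for heart formation in the embryo, had 25 and 18 reads, a log2(fold-change) of -0.37 with an interval of -1.33 to 0.56. Has3 (chromosome 8, 109394142 to 109406802) had 36 and 32 reads, a log2(fold-change) of -0.07 with an interval of -0.80 to 0.66. Both intervals include 0, and that of Has2 also includes a 2-fold decrease, so that no difference was detectable at this depth. Reads of Has1 were thus higher in the depolarized library, while those of the other synthases were few in both.

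Because shares within a library do not depend on how libraries are scaled, the reads of the 3 synthases were also compared with each other. Has1 held 86.4% of 447 synthase reads in control arteries (95% exact binomial interval 82.8% to 89.4%) and 95.4% of 1090 reads in depolarized arteries (93.997% to 96.6%). The share of Has2 was 5.59% (3.65% to 8.15%) and 1.65% (0.982% to 2.60%). The share of Has3 was 8.05% (5.70% to 10.98%) and 2.94% (2.02% to 4.12%). The 3 shares sum to the whole, so that the lower shares of Has2 and Has3 follow from the added Has1 reads and are no separate difference. In FPKM (reads per 1000 bases of gene length and per 1000000 reads, as deposited), the summed level of the 3 synthases was 14.6 in control and 33.8 in depolarized arteries, of which Has1 made up 89.8% and 96.6%.

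Has2 shares its place with Has2as, an antisense transcript of its locus, which had 9 reads in control and 0 reads in depolarized arteries. These reads are too few for a change to be given, and no source states that strand was used in counting. Reads from the stretch that this sense and antisense pair shares (56521499 to 56526094) therefore cannot be told apart. The nearest tested genes on each side of Has2, Sntb1 and Zhx2, lie 758.7 and 1000.1 kb away. Sntb1 had a log2(fold-change) of -0.98 and Zhx2 of 1.04, past 2-fold upward. Has1 and Has3 overlap no gene in GENCODE vM1, the annotation searched here. The nearest gene to Has1, Ncrna00085, ends 319 bp from it on the opposite strand and had 544 and 393 reads, a log2(fold-change) of -0.37 (interval -0.56 to -0.18), in the direction opposite to Has1.

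Precursor supply was the step with the most reads. Uap1 (chromosome 1, 172072069 to 172105088), which joins UTP and N-acetylglucosamine phosphate to form UDP-N-acetylglucosamine, had 1872 reads in control and 7870 reads in depolarized arteries, with a counting interval of 2.10 to 2.25 around its log2(fold-change). Only 1.04% of tested genes had a larger value. On the FPKM scale Uap1 was at 140 and 547, a level exceeded by 5.00% of tested genes in the control library and by 1.18% in the depolarized library. It took 43.3% of the reads of all 10 genes in control (interval 41.8% to 44.8%) and 67.7% in depolarized arteries (66.9% to 68.6%). Ugdh (chromosome 5, 65804441 to 65827185), which oxidizes UDP-glucose to UDP-glucuronic acid, the other building block, had 559 and 733 reads. Its log2(fold-change) was 0.49 (interval 0.33 to 0.65), a 1.41-fold increase short of the 2-fold line. In FPKM, Uap1 was 6.42 times Ugdh in control and 20.6 times Ugdh in depolarized arteries, so that the enzymes of both precursors did not move in proportion. The nearest genes on each side of Uap1, Ddr2 and Uhmk1, had log2(fold-change) of -0.19 and -0.13.

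**Figure D2:**
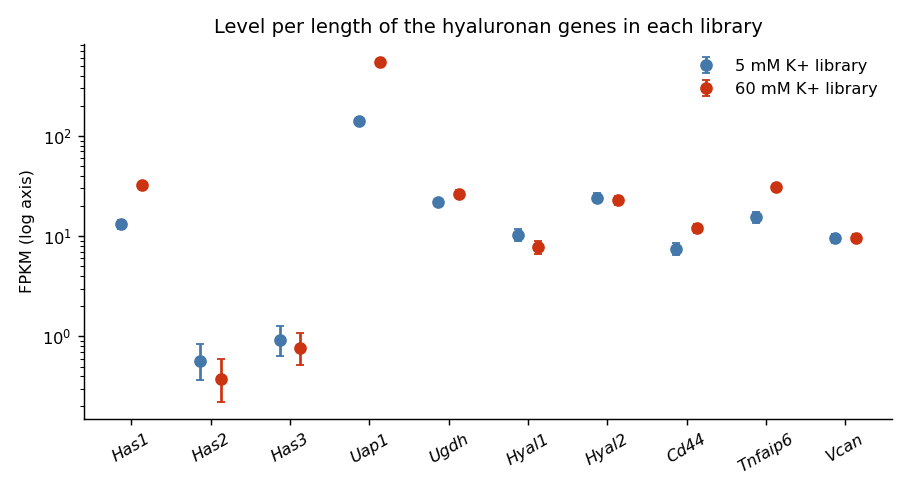
Deposited FPKM (y axis, log scale) of each hyaluronan gene (x axis) in the 5 mM K+ library (blue) and the 60 mM K+ library (red), with 95% Poisson counting intervals as bars, most of which are smaller than the points. Uap1 is the highest in both libraries at 140 and 547, and Has2 and Has3 are the lowest, below 1 FPKM.

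The route that feeds Uap1 starts from glucose and passes through the hexosamine pathway. Of 18 genes found from a list for hexosamine and UDP-sugar supply, 17 had enough reads. Of these, 2 were past 2-fold upward and 0 downward, against 5.54% and 5.86% of all tested genes. Their median log2(fold-change) was 0.01. Hk2, a hexokinase that phosphorylates glucose, had 203 reads in control and 1776 in depolarized arteries, a log2(fold-change) of 3.23 (interval 3.02 to 3.45). The hexokinase Hk1 was at 0.42 and Gpi1, the next glycolytic enzyme, at 0.46. For the rate-limiting enzyme of the hexosamine pathway, glutamine fructose-6-phosphate transaminase, the genes differed: Gfpt2 had 413 and 833 reads, a log2(fold-change) of 1.11 (interval 0.94 to 1.29), and Gfpt1 had 569 and 535 reads, a log2(fold-change) of 0.01 (interval -0.16 to 0.19). The steps between these enzymes and Uap1 had few reads. Gnpnat1, an acetyltransferase, was listed with 3 and 0 reads, and Pgm3, a mutase, had 86 and 72 reads with a log2(fold-change) of -0.15 (interval -0.63 to 0.31). Whether low counts such as these reflect little RNA or the way reads were assigned to genes was not tested. On the branch to Ugdh, Ugp2, which makes UDP-glucose, had 885 and 1019 reads, a log2(fold-change) of 0.30. Ogt, which uses UDP-N-acetylglucosamine to modify proteins, had 1933 and 954 reads, with a value of -0.92 on the same scale (interval -1.03 to -0.80), and Mgea5, which removes that modification, was at 0.40.

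The hyaluronidases had similar reads in both libraries. Hyal2 (chromosome 9, 107471448 to 107475107), which cuts long chains at the cell surface, had 356 reads in control and 363 in depolarized arteries, a log2(fold-change) of 0.13 (interval -0.09 to 0.34) that turned to -0.08 with total-count scaling. Hyal1 (chromosome 9, 107479258 to 107485174), a lysosomal enzyme that degrades shorter chains, had 213 and 174 reads, a log2(fold-change) of -0.19 (interval -0.49 to 0.11). Both intervals include no change and end well inside a 2-fold change in either direction. The share of Hyal1 among reads of the pair was 37.4% (33.4% to 41.6%) in control and 32.4% (28.5% to 36.5%) in depolarized arteries, with overlapping intervals. The genes lie 4.2 kb apart, and Hyal1 overlaps Hyal3 and Nat6 on the same strand, so that its reads are uncertain; Nat6 had 343 and 379 reads and Hyal3 had 9 and 5. In a list of other turnover genes, 5 of 10 found had enough reads. Of these, 0 were past 2-fold in either direction, against 5.54% upward and 5.86% downward of all tested genes. Their median log2(fold-change) was -0.03. Tmem2, a hyaluronidase of the cell surface, had 1370 and 1150 reads, with a log2(fold-change) of -0.15, and the lysosomal exoglycosidase genes Hexa and Gusb were at -0.03 and -0.01. Hyal4, Hyal5, Hyal6 and Spam1 had 0 reads in both libraries.

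Cd44 (chromosome 2, 102651298 to 102741822), the main receptor, had 218 reads in control and 377 reads in depolarized arteries. The log2(fold-change) was 0.89 (interval 0.65 to 1.14), a 1.86-fold increase just short of 2-fold, and 6.73% of tested genes had a larger value. Cd44 is also expressed by leukocytes, and the 6 macrophage markers had 431 reads in control and 309 reads in depolarized arteries; the part of these cells in the Cd44 value was not tested. Among 7 other receptor genes, all with enough reads, 2 were past 2-fold upward and 1 downward, against 5.54% and 5.86% of all tested genes. Their median log2(fold-change) was -0.07. Tlr2, an innate immune receptor reported to respond to hyaluronan fragments, had 86 and 188 reads, a log2(fold-change) of 1.23 (interval 0.85 to 1.62), while Tlr4 was at -0.18. Hmmr, a receptor also known for its part in cell division, had 5 and 16 reads, a log2(fold-change) of 1.78 with a wide interval of 0.27 to 3.58. Lyve1, the hyaluronan receptor of lymphatic vessels and some resident macrophages, had 318 and 135 reads, a log2(fold-change) of -1.13 (interval -1.44 to -0.84). Layn was at 0.62 and Stab1, with 1522 and 1348 reads, at -0.07.

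The binding proteins also differed from each other. Tnfaip6 (chromosome 2, 51893529 to 51912206) encodes TSG-6, a protein induced by inflammatory cytokines that transfers heavy chains of inter-alpha-inhibitor onto hyaluronan. It had 276 reads in control and 592 reads in depolarized arteries, a log2(fold-change) of 1.20 (interval 0.99 to 1.41). With total-count scaling this value was 0.99, short of 2-fold. Vcan (chromosome 13, 89794915 to 89882117), which encodes the large proteoglycan versican, had 386 and 422 reads, a log2(fold-change) of 0.23 (interval 0.03 to 0.43) that was 0.02 with total-count scaling. Of the reads of Tnfaip6 and Vcan together, Tnfaip6 held 41.7% in control (37.9% to 45.6%) and 58.4% in depolarized arteries (55.3% to 61.4%). These intervals cover counting error only, and the share restates the changes of both genes and is no separate difference. On the opposite strand, Vcan overlaps Gm4117, a long noncoding RNA gene with 57 and 26 reads, whose log2(fold-change) was -1.03 (interval -1.76 to -0.34). The genes next to Tnfaip6 had fewer reads after depolarization, with Nmi at -0.49 and Rif1 at -0.85. Next to Vcan, Hapln1 was at 0.01 and Xrcc4 at -0.08. Next to Ugdh, Lias was at -0.06 and 1110003E01Rik at -0.04, next to Cd44, Pamr1 was at 0.49 and Pdhx at -0.12, and next to Has3, Tmco7 was at 0.18 and Cirh1a at 0.55.

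Of 17 other binding and matrix partners found, 10 had enough reads. Of these, 2 were past 2-fold upward and 1 downward, against 5.54% and 5.86% of all tested genes. Their median log2(fold-change) was -0.06. Ptx3, a pentraxin that joins TSG-6 and the heavy chains in cross-linked hyaluronan, had 59 reads in control and 245 reads in depolarized arteries, a log2(fold-change) of 2.16 (interval 1.74 to 2.59). Of the inter-alpha-inhibitor heavy chain family, Itih4 had 51 and 106 reads, with a log2(fold-change) of 1.16 (interval 0.66 to 1.67). Itih5 had the most reads of the family, 752 and 497, with a log2(fold-change) of -0.50, and Itih3 was at -0.12 and Itih2 at 0.15. Itih1 and Ambp, the light chain gene, had 0 reads. Acan, which encodes aggrecan, had 14 and 5 reads, a log2(fold-change) of -1.38 whose interval of -3.21 to 0.17 includes no change. The link protein gene Hapln1 had 49 and 46 reads, and Habp4 and C1qbp were at 0.15 and -0.14.

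Versican is cut by metalloproteinases of the ADAMTS family. Of the 6 genes known to encode such enzymes, 2 were past 2-fold upward and 0 downward, against 5.54% and 5.86% of all tested genes. Their median log2(fold-change) was 0.23. Adamts4 had 1150 and 7004 reads, a log2(fold-change) of 2.71, and Adamts9 had 416 and 1567 reads, a log2(fold-change) of 2.01. The others were Adamts1 at 0.35 with 27966 and 33217 reads, Adamts15 at 0.11, Adamts5 at -0.46 and Adamts20 at -0.71 with 35 and 20 reads.

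**Figure D3:**
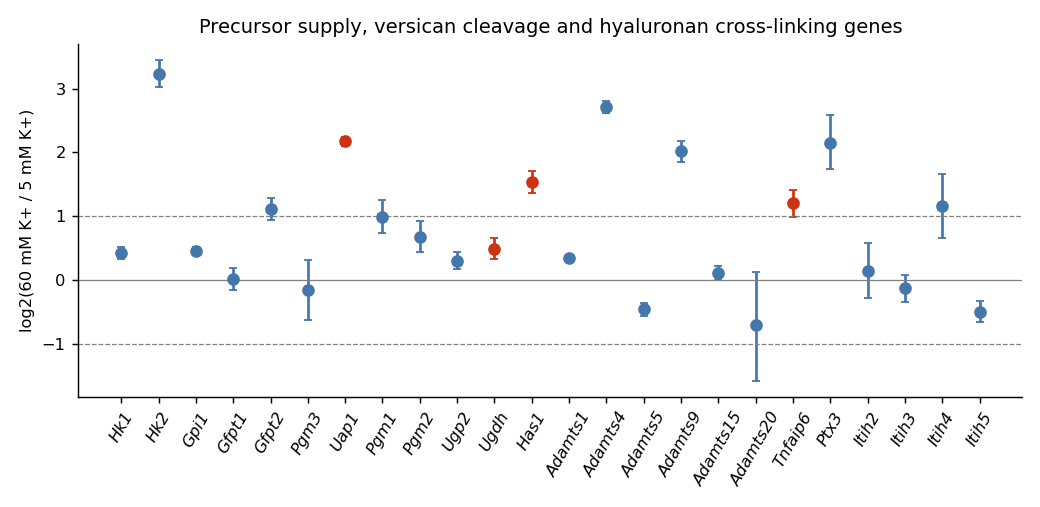
Log2(fold-change) between the 60 mM K+ and the 5 mM K+ library (y axis) with 95% counting intervals, by gene (x axis). From the left stand genes of precursor supply (Hk1 to Ugdh), Has1, versican-cleaving ADAMTS genes, Tnfaip6, Ptx3 and genes of the inter-alpha-inhibitor heavy chain family. Red points are members of the hyaluronan list, blue points are other pathway genes with at least 10 reads, and dashed lines mark a 2-fold change. Hk2, Uap1, Has1, Adamts4, Adamts9 and Ptx3 lie wholly above the upper line, whereas the intervals of Gfpt2, Pgm1, Tnfaip6 and Itih4 cross it. Adamts20, with few reads, has an interval from above 0 to below the lower line.

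Ordered by level per length in FPKM, Uap1 stood first in the control library at 140 (Poisson interval 134 to 147). It was followed by Hyal2 at 24.2 and Ugdh at 21.8, then Tnfaip6 at 15.4 and Has1 at 13.1, then Hyal1 at 10.2 and Vcan at 9.48, and then Cd44 at 7.45. Has3 at 0.919 and Has2 at 0.563 came last. Among neighbours in this order, the interval of the FPKM ratio included 1 for Hyal2 over Ugdh (0.967 to 1.27), Hyal1 over Vcan (0.905 to 1.27) and Has3 over Has2 (0.953 to 2.84), so that the order within these pairs was not resolved at this depth. In the depolarized library the order was Uap1 at 547, Has1 at 32.7, Tnfaip6 at 30.7, Ugdh at 26.5, Hyal2 at 22.9, Cd44 at 11.96, Vcan at 9.62, Hyal1 at 7.73, Has3 at 0.758 and Has2 at 0.376. Has1 and Tnfaip6 thereby passed Ugdh and Hyal2, and Cd44 passed Hyal1 and Vcan. In this library the interval of the ratio included 1 for Has1 over Tnfaip6 alone among the neighbours (0.963 to 1.18), and for Tnfaip6 over Ugdh it was 1.03 to 1.29. The share of tested genes with a higher FPKM than Has1 was 44.6% in control and 21.9% in depolarized arteries.

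These levels depend on the length that was assigned to each gene. From the deposited counts and FPKM, the length used was 1275 nt for Uap1, 3885 nt for Vcan and 2793 nt for Cd44, whereas the longest coding transcript in GENCODE vM1 has 2311, 12429 and 5614 nt. With the longest coding transcript as length, Uap1 was at 77.3 and 302 and still the highest, Vcan was at 2.96 and 3.01, and Cd44 was at 3.70 and 5.95. By that measure Ugdh at 20.9 came second in the control library and Has1 at 44.1 came second in the depolarized library. The length assigned to a gene does not enter its log2(fold-change), which was computed from reads. Removal of a trend of change with gene length is a separate setting, given below.

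**Figure D4:**
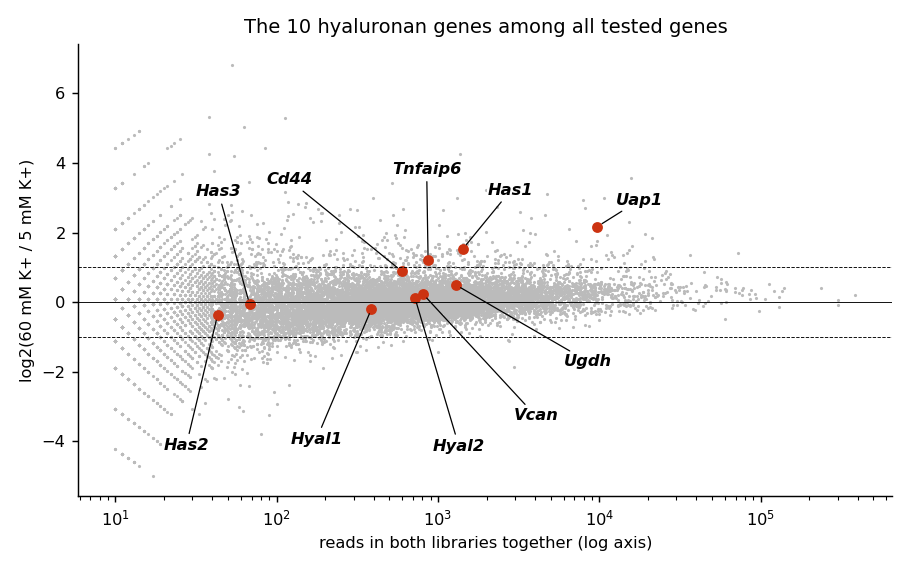
Log2(fold-change) between the 60 mM K+ and the 5 mM K+ library (y axis) against the reads of both libraries together (x axis, log scale) for 14829 tested genes (grey) with the 10 hyaluronan genes in red. Dashed lines mark a 2-fold change. Uap1 lies above most genes of like read number, and Has2 and Has3 lie at low read numbers, where grey points spread widely.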

How the data were processed

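RNA-seq was performed on mesenteric arteries, with 1 library per condition. According to the methods of the study, the authors had the libraries sequenced commercially and aligned the reads to mm9 with TopHat2. The submitters' processing notes list TopHat2 2.0.12, HTSeq 0.6.1 and edgeR 3.0.8, and the annotation is not given in the sources used here. The authors deposited raw read counts per gene, without normalization. FPKM values were deposited as well. Dividing count by FPKM gave a quotient that differed between the libraries by a factor of 0.928 in each of 17356 genes, which is also the factor between their totals, so that FPKM carries total-count scaling.

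Gene symbols and mm9 positions were taken from GENCODE vM1, in which 32601 of 55573 deposited gene IDs were found; these took 99.1% of the reads of each library. TMM factors of the counts were 1.07 for control and 0.930 for depolarized arteries (edgeR 4.0.16, run under R 4.3.3). Genes with fewer than 10 reads over both libraries were left out, and a count of 0 entered a ratio as 0.5. The quasi-likelihood test could not be run on 1 library per condition, and DEGSeq's test, which the study used, compares reads of the libraries and was not run. Its list of changed genes in the study holds Has1, Uap1, Hk2, Adamts4 and Adamts9, and not Tnfaip6, Ptx3 or Gfpt2. Counting intervals were Clopper-Pearson for ratios (between libraries, or between genes in a library) and shares, and Poisson for levels; reads are not independent molecules, so they cover counting error only. The interval code was tested on simulated data.

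The members, the other gene lists and the motifs were chosen with earlier results of these data known. Named genes are the members, most of their overlapping and nearest genes, and all versican-cleaving ADAMTS genes. Left out were the nearest genes Vmn2r97, Tusc2 and Ifrd2 and overlapping genes with 0 reads. From the other lists, genes with an interval wholly past 2-fold and up to 4 with the most reads are named. Further list genes (Gfpt1, Gfpt2, Gnpnat1, Pgm1, Pgm2, Pgm3, Ugp2, Tlr2, Hmmr, Itih2, Itih4, Acan, Hapln1, and those at 0) were added after their values were seen. Promoter windows came from RefSeq (GRCm38.p6). Windows were planned for members with an interval wholly past 2-fold, and those of the other members, Tnfaip6 among them, were added. Results were recomputed with scaling by total counts, by upper quartiles and by the median of ratios of DESeq2 1.42.0, with FPKM with pseudocounts of 0.1 and 1, after removal of the trend with gene length (running median over 501 genes), with other minimum read numbers, with calls by the whole interval and, added after the data were seen, another gene length for levels.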

Additional observations from a re-analysis of the deposited data

How the results depend on the processing

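No paired analysis was possible because control and depolarized arteries gave 1 library each, so these settings show how scaling and counting move the values, not how animals differ. Total-count scaling and FPKM, which is scaled the same way, lowered the median log2(fold-change) of the 10 hyaluronan genes from 0.36 to 0.15 under all 3 settings (total counts, pseudocounts of 0.1 and 1). Under these settings Tnfaip6 lay between 0.95 and 0.99, short of 2-fold, so that 2 genes in place of 3 were past 2-fold, and Hyal2 turned from 0.13 to -0.08; Has3 turned from -0.07 to 0.03 with the length trend removed, which also took Cd44 past 2-fold, at 1.02. Uap1 lay between 1.96 and 2.16 and Has1 between 1.26 and 1.67 under these alternatives. Median-of-ratios and upper-quartile scaling moved none of the 10 genes across 2-fold or across 0.

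The background moved more. From 822 genes past 2-fold upward and 869 downward, the counts were 263 and 73 with the whole counting interval past 2-fold, 3081 and 2491 with at least 1 read, and 412 and 211 with at least 50 reads, the construction of each setting being the cause. FPKM gave 497 upward and 1037 downward with a pseudocount of 0.1, and 240 upward and 193 downward with a pseudocount of 1. With few reads, Has2 and Has3 limit what can be said of their change.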
